A study of Homo sapiens
Mus musculus with 6 samples.

Results

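The 33 genes described here are mouse genes of the unfolded protein response, read in C2C12 myoblasts, a mouse skeletal muscle precursor line. They were chosen by name for what they do, with earlier results of these data known. They comprise 14 chaperones and folding factors of the endoplasmic reticulum (ER) and 6 genes of ER-associated degradation (ERAD). The others are 6 stress sensors and transcription factors, and 7 targets of the transcription factor ATF4. All 33 were among the 23433 genes of the mouse table, and all 33 were among the 11365 genes with enough reads to be tested.

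The unfolded protein response matches the folding capacity of the ER to the load of new secreted and membrane proteins. Its sensors in the ER membrane act by different means. IRE1, the product of Ern1, splices Xbp1 mRNA. PERK, the product of Eif2ak3, slows translation and favours the translation of ATF4. ATF6 is cut to release a transcription factor. Together these factors raise chaperones, ERAD genes and genes of amino acid metabolism. Splicing, cleavage, phosphorylation and translation are not visible in counts per gene, so the values below are mRNA levels of the pathway's genes and not its activity.

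Each of 6 wells held a mouse and a human line that were lysed together, so that reads of the myoblasts were told from reads of their partners by species. The mouse cells were C2C12-FLNotch1, a line that expresses Notch1 and was kept under puromycin, or C2C12-control, labelled wild type. The human partners were HEK-293-Flp-In kidney cells: HEK-Jag1Ndr, HEK-Jag1WT or HEK-control. HEK-Jag1Ndr expresses the Nodder (Ndr) form of the Notch ligand Jag1 and HEK-Jag1WT its wild-type form. Both Jag1 lines were kept under hygromycin. Each of the 6 combinations was 1 well. The mouse cells of all wells were transfected with the plasmid pcDNA5 at 1.6 ug per well after 8 h, received the partner 18 h after transfection, and shared the well for 6 h. Whether a line is 1 clone or a pool is not stated in the sources used here. All wells came from 1 plate, with no replicate of any combination. The p-values therefore measure departures from additive effects of C2C12 line and HEK line, with information on spread shared across genes. They do not measure the spread between replicate wells or between independent cultures.

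Mouse reads numbered 2263529 to 7965231 per well, with the fewest in C2C12-FLNotch1 with HEK-Jag1WT. Mouse reads made up 29.6% to 36.5% of all reads in C2C12-FLNotch1 wells, against 47.2% to 52.7% in C2C12-control wells. In such mixed wells, fewer mouse cells and less RNA per mouse cell cannot be told apart. Notch1 stood at 158, 179 and 174 RPKM (reads scaled for gene length and for the mouse reads of the well) in C2C12-FLNotch1 with HEK-Jag1Ndr, HEK-Jag1WT and HEK-control, against 12.7, 20.4 and 9.06 RPKM in C2C12-control with the same partners. Jag1, the ligand of the HEK lines, had 63145, 46762 and 280 reads in the mouse table in C2C12-FLNotch1 wells in that order of partners, against 63416, 42347 and 110 reads in C2C12-control wells. Notch1 was thus high in the wells of C2C12-FLNotch1, and Jag1 in the wells of the Jag1 lines. The labels place Jag1 in the HEK partners, so its mouse reads cannot be assigned to the myoblasts. For this gene the species of a read does not tell the cells apart. Of 10 C2C12 marker genes, 9 were in the table and 0 of them were at 0 reads. Their summed level was 1590 to 1860 RPKM in C2C12-FLNotch1 wells and 1500 to 1910 RPKM in C2C12-control wells, but single markers differed between the lines. The muscle factors Myog and Myod1 averaged 32.9 and 79.8 RPKM in C2C12-FLNotch1 wells, against 12.1 and 41.35 RPKM in C2C12-control wells. Msc, which encodes the repressor musculin, and Des, the muscle filament gene, averaged 4.22 and 379 RPKM in C2C12-FLNotch1 wells, against 20.6 and 573 RPKM in C2C12-control wells. Of 10 HEK marker genes, Pax2, Lhx1, Epcam, Sall1 and Prame were at 0 mouse reads. The 10 summed to 1.9 to 3.15 RPKM in C2C12-FLNotch1 wells and 4.71 to 5.52 RPKM in C2C12-control wells. Most of that sum was Eya1, which averaged 2.03 RPKM in C2C12-FLNotch1 wells and 4.18 RPKM in C2C12-control wells. Pax8 averaged 0.0786 and 0.87 RPKM in the same order. Eya1 had 405 mouse reads beside 392 human reads, and Pax8 had 40 beside 4. The part of these differences in the results below was not tested.

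The unfolded protein response genes were mostly higher in the C2C12-FLNotch1 line. Of the 33, 18 were higher and 4 were lower in C2C12-FLNotch1 than in C2C12-control at an adjusted p under 0.05, and 11 did not pass. That is 66.7% of them, against 57.8% of all 11365 genes tested. By direction, 54.5% were higher, where 28.4% of all genes were higher, and 12.1% were lower, where 29.4% of all genes were lower. The median log2 change was 0.205 over the 33 genes and 0.003 over all genes tested. Differences between lines are from edgeR's quasi-likelihood test over all 6 wells, with the HEK partner as a term and Benjamini-Hochberg adjustment over all genes tested. The 3 C2C12-FLNotch1 wells did not overlap the 3 C2C12-control wells in CPM, counts scaled to the TMM-adjusted library size, for 24 genes, 20 of them higher and 4 lower, where 29.0% and 30.0% of all genes did so. The 33 genes took 0.861% to 0.903% of mouse reads in C2C12-FLNotch1 wells and 0.748% to 0.778% in C2C12-control wells. Each Notch1 level comes from 1 line, so expression of Notch1, puromycin selection, the smaller mouse share of the well and line history cannot be told apart.

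**Figure D1:**
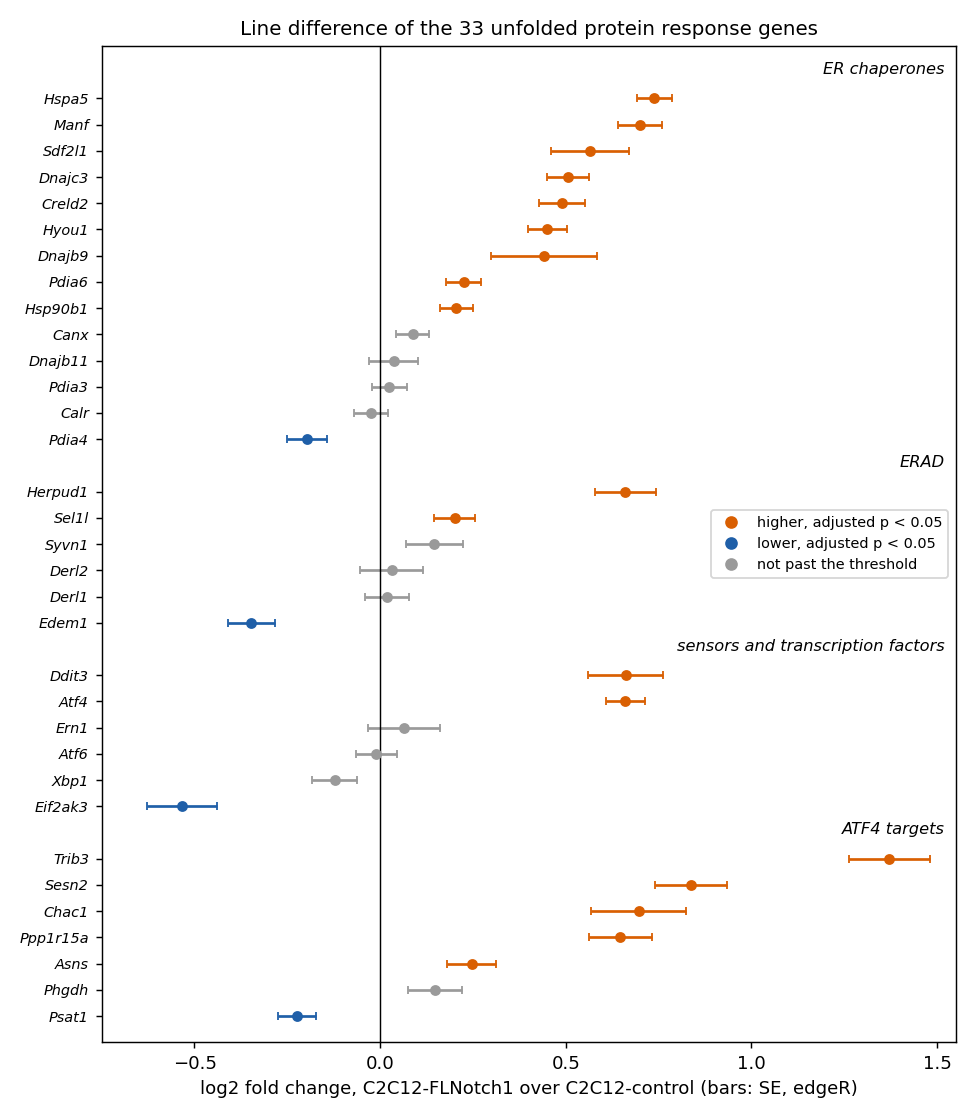
Log2 fold change of each of the 33 genes between C2C12-FLNotch1 and C2C12-control (horizontal axis), grouped by role; points are edgeR estimates over 6 wells and bars are standard errors. Orange marks 18 genes higher, blue 4 genes lower and grey 11 genes that did not pass the test, with Trib3 at the far right at 1.37.

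The sensors and transcription factors did not move together. Of these 6 genes, Atf4 and Ddit3 were higher, Eif2ak3 was lower, and Ern1, Atf6 and Xbp1 did not pass. That is 50% called, 33.3% higher and 16.7% lower, where 57.8%, 28.4% and 29.4% of all genes tested were. With 6 genes, these counts do not set the group apart from all genes. Atf4, the transcription factor whose translation PERK favours, had 166, 158 and 150.1 RPKM in C2C12-FLNotch1 with HEK-Jag1Ndr, HEK-Jag1WT and HEK-control, against 103, 98.0 and 96.4 RPKM in C2C12-control with the same partners. Every C2C12-FLNotch1 well lay above every C2C12-control well, a log2 change of 0.66 (SE 0.0532, adjusted p = 2.83e-16). Ddit3, which encodes the factor CHOP, stood at 54.6, 51.0 and 55.2 RPKM in C2C12-FLNotch1 wells in the same order of partners, against 35.6, 34.1 and 31.4 RPKM in C2C12-control wells. Here too the lines did not overlap (log2 change 0.66, SE 0.101, adjusted p = 1.26e-07).

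Eif2ak3, the gene of the sensor PERK, went the other way. It had 7.55, 8.47 and 8.00 RPKM in C2C12-FLNotch1 with HEK-Jag1Ndr, HEK-Jag1WT and HEK-control, against 11.05, 11.3 and 11.9 RPKM in C2C12-control wells. Its log2 change was -0.53 (SE 0.0936, adjusted p = 2.27e-06), with no overlap between the lines. Ern1 had 10.9, 8.52 and 10.8 RPKM in C2C12-FLNotch1 wells and 11.1, 8.87 and 8.82 RPKM in C2C12-control wells. Atf6 had 25.5, 27.3 and 25.2 RPKM in C2C12-FLNotch1 wells and 25.05, 26.2 and 26.5 RPKM in C2C12-control wells. Xbp1 had 59.4, 69.8 and 59.8 RPKM in C2C12-FLNotch1 wells and 69.7, 72.7 and 60.8 RPKM in C2C12-control wells. The lines overlapped in all 3 genes, with log2 changes of 0.07 for Ern1 (adjusted p = 0.588), -0.01 for Atf6 (adjusted p = 0.893) and -0.12 for Xbp1 (adjusted p = 0.0762). Per length of gene model, Eif2ak3 and Ern1 had the lowest mean levels of the 33 genes over all 6 wells, at 9.71 and 9.82 RPKM, and the ER chaperone Calr the highest, at 611 RPKM.

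The ATF4 targets held the largest line differences. Of these 7 genes, 5 were higher, Psat1 was lower and Phgdh did not pass, and their median log2 change was 0.647. By share, 71.4% were higher and 14.3% lower, against 28.4% and 29.4% of all genes tested. Trib3, a pseudokinase induced by ATF4 and CHOP, had 21.9, 26.3 and 20.5 RPKM in C2C12-FLNotch1 with HEK-Jag1Ndr, HEK-Jag1WT and HEK-control, against 8.775, 9.02 and 8.125 RPKM in C2C12-control wells. Its 2.59-fold difference was the largest of the 33 (log2 change 1.37, SE 0.109, adjusted p = 1.73e-16). The lowest C2C12-FLNotch1 well was above the highest C2C12-control well by more than the spread within either line.

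Sesn2, a stress-inducible inhibitor of mTORC1 signalling, had 17.5, 20.1 and 21.3 RPKM in C2C12-FLNotch1 wells in the order HEK-Jag1Ndr, HEK-Jag1WT and HEK-control, against 10.3, 9.37 and 12.5 RPKM in C2C12-control wells (log2 change 0.84, SE 0.098, adjusted p = 1.11e-10). Chac1, an enzyme that degrades glutathione, had 20.8, 18.2 and 16.8 RPKM in C2C12-FLNotch1 wells, against 11.1, 10.4 and 12.9 RPKM in C2C12-control wells (log2 change 0.70, SE 0.127, adjusted p = 4.7e-06). Ppp1r15a, the phosphatase subunit that restores translation after PERK has slowed it, had 31.8, 32.98 and 30.2 RPKM in C2C12-FLNotch1 wells, against 21.5, 21.1 and 17.4 RPKM in C2C12-control wells (log2 change 0.65, SE 0.086, adjusted p = 3.81e-09). In each of these 3 genes all C2C12-FLNotch1 wells lay above all C2C12-control wells.

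The amino acid synthesis genes of the same group differed less and not in 1 direction. Asns, asparagine synthetase, was higher by 0.25 on the log2 scale (adjusted p = 1.31e-03). Leaving out either HEK-Jag1Ndr well, or testing with DESeq2, ended that call, with adjusted p-values of 0.130, 0.139 and 0.106. Psat1, of the serine pathway, was lower, with a log2 change of -0.22 (adjusted p = 1.41e-04). Phgdh, which catalyses the first step of serine synthesis, had a log2 change of 0.15 and did not pass (adjusted p = 0.0747).

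Among the 14 ER chaperones and folding factors, 9 were higher, Pdia4 was lower and 4 did not pass, with a median log2 change of 0.333. Higher genes made up 64.3% and lower genes 7.14%, against 28.4% and 29.4% of all genes tested. Hspa5 encodes BiP, the major ER chaperone, which also holds the sensors inactive. It had 299, 276 and 271 RPKM in C2C12-FLNotch1 with HEK-Jag1Ndr, HEK-Jag1WT and HEK-control, against 166.5, 169.9 and 167 RPKM in C2C12-control wells. That is 282 ± 15.03 RPKM in C2C12-FLNotch1 wells and 168 ± 1.84 RPKM in C2C12-control wells (SD, n = 3 wells each, across the HEK partners). The difference was 1.67-fold (log2 change 0.74, SE 0.0474, adjusted p = 2.83e-20), the smallest adjusted p of the 33 genes.

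Some partners of BiP were also higher in C2C12-FLNotch1, though its co-chaperone Dnajb11 did not pass. Manf, a small ER protein that binds BiP and can be secreted, had 104.7, 95.4 and 97.5 RPKM in C2C12-FLNotch1 wells in the same order of partners, against 57.5, 63.3 and 62.4 RPKM in C2C12-control wells (log2 change 0.70, SE 0.0592, adjusted p = 1.77e-15). Dnajc3, a co-chaperone of BiP, had 44.6, 43.0 and 39.0 RPKM in C2C12-FLNotch1 wells, against 29.2, 30.2 and 29.2 RPKM in C2C12-control wells (log2 change 0.51, SE 0.0563, adjusted p = 2.27e-11). Sdf2l1, an ER-resident partner of BiP's co-chaperones, had 40.6, 34.6 and 37.6 RPKM in C2C12-FLNotch1 wells, against 22.8, 28.3 and 26.7 RPKM in C2C12-control wells (log2 change 0.57, SE 0.105, adjusted p = 6.4e-06). The lines did not overlap in any of these 3 genes, and Sdf2l1 varied most between the partners.

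The other higher chaperones spanned log2 changes of 0.21 to 0.49. Creld2, an ER-stress-inducible secreted protein, changed by 0.49 (adjusted p = 8.91e-10), and Hyou1, which exchanges nucleotide on BiP, changed by 0.45 (adjusted p = 6.96e-11). Dnajb9, a BiP co-chaperone that restrains IRE1, changed by 0.44 (adjusted p = 6.7e-03). Its call was lost with DESeq2 (adjusted p = 0.212) and without the C2C12-FLNotch1 or the C2C12-control well with HEK-Jag1Ndr (adjusted p = 0.0875 and 0.0831). Pdia6, a disulphide isomerase, changed by 0.23, and Hsp90b1, the ER form of Hsp90, changed by 0.21.

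The remaining 5 folding factors were lower or did not pass. The lectin chaperones Calr and Canx, which hold sugar-bearing proteins, had log2 changes of -0.03 (adjusted p = 0.662) and 0.09 (adjusted p = 0.093). The disulphide isomerase Pdia3, which works with them, stood at 0.02, and the BiP co-chaperone Dnajb11 at 0.04, and neither passed. Pdia4, another disulphide isomerase, was lower, with a log2 change of -0.20 (adjusted p = 1.31e-03). With DESeq2 its adjusted p was 0.0563.

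Of the 6 ERAD genes, which return misfolded proteins to the cytosol for destruction, 2 were higher, 1 was lower and 3 did not pass. The shares were 33.3% higher and 16.7% lower, against 28.4% and 29.4% of all genes tested. So few genes do not set the group apart from all genes. Herpud1, a stress-inducible scaffold of the degradation complex, had 42.1, 40.6 and 42.2 RPKM in C2C12-FLNotch1 with HEK-Jag1Ndr, HEK-Jag1WT and HEK-control, against 25.5, 24.1 and 28.8 RPKM in C2C12-control wells. Its lines did not overlap (log2 change 0.66, SE 0.0816, adjusted p = 5.2e-10). Edem1, which picks out misfolded glycoproteins, was lower, with 18.0, 22.5 and 17.9 RPKM in C2C12-FLNotch1 wells and 22.7, 26.4 and 23.9 RPKM in C2C12-control wells (log2 change -0.35, adjusted p = 5.68e-06). In Edem1 the highest C2C12-FLNotch1 well and the lowest C2C12-control well nearly met.

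Sel1l, an adaptor of the ubiquitin ligase complex, was higher by 0.20 on the log2 scale (adjusted p = 1.7e-03), a call that DESeq2 did not make (adjusted p = 0.0901). Its partner Syvn1, the ligase itself, had a log2 change of 0.15 (adjusted p = 0.0977). The derlins Derl1 and Derl2, membrane proteins of the exit channel, stood at 0.02 and 0.03, and neither passed.

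**Figure D2:**
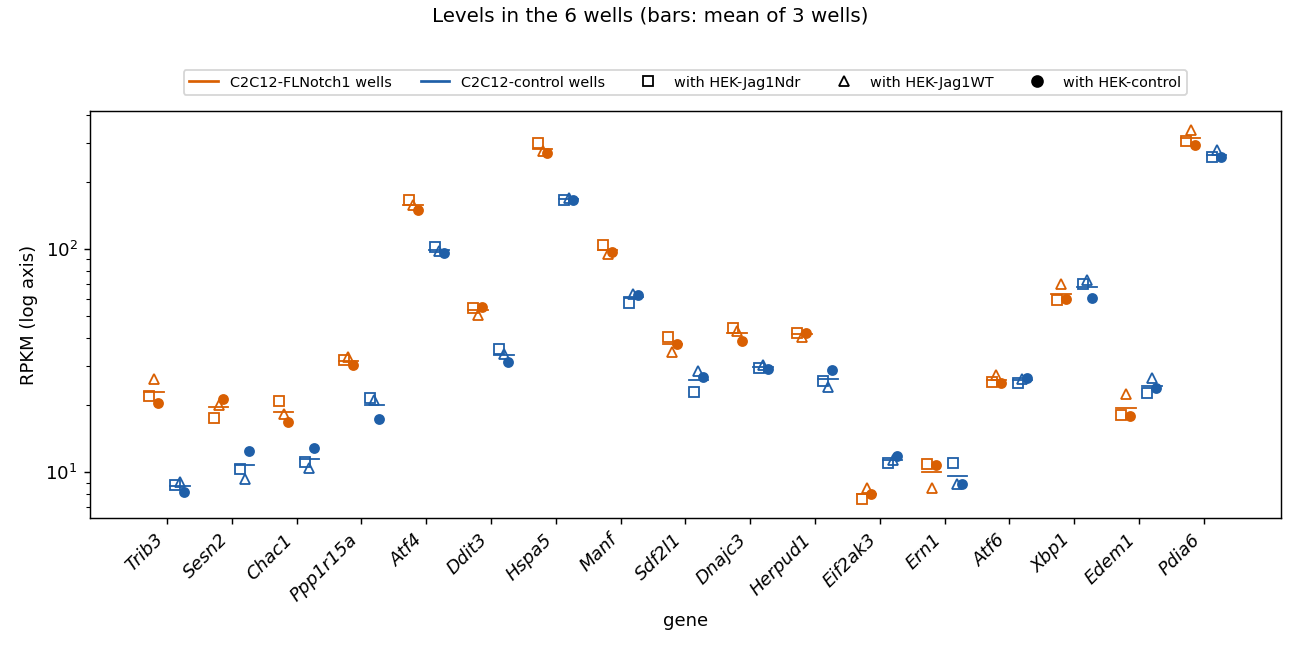
RPKM (log axis) of 17 of the genes in each of the 6 wells, with C2C12-FLNotch1 in orange left of C2C12-control in blue, the HEK partner as the marker shape and the mean of 3 wells as a bar. The colours separate in Trib3, Atf4, Ddit3 and Hspa5, while they overlap in Ern1, Atf6 and Xbp1.

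The line differences were then read with each HEK partner on its own, as the log2 ratio of 2 wells with no test. For 26 of the 33 genes the ratio had the same sign with all 3 partners. The 7 others were Calr, Dnajb11, Pdia3, Derl1, Derl2, Ern1 and Atf6, none of which had passed. These ratios use the same wells as the test, so they are no separate support for its calls. The count was not taken over all genes, so whether 26 is unusual cannot be said. Trib3 gave 1.297 with HEK-Jag1Ndr, 1.505 with HEK-Jag1WT and 1.28 with HEK-control. Atf4 gave 0.685, 0.68 and 0.61 with the same partners. Chac1 gave 0.89 with HEK-Jag1Ndr, 0.78 with HEK-Jag1WT and 0.34 with HEK-control, with 95% counting intervals that overlapped.

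Other genes of the pathway were counted from lists drawn up by function. Earlier results of these data were known at that point, so the lists are not independent of them. Of 141 tested, 56 were higher and 39 were lower in C2C12-FLNotch1, with a median log2 change of 0.093. That is 39.7% higher and 27.7% lower, where 28.4% and 29.4% of all genes tested were. Of 38 other ATF4 targets, 27 were higher and 3 were lower, 71.1% and 7.89% of them, with a median of 0.391. The higher ones included Xpot, the exporter of tRNA (log2 change 0.88, adjusted p = 8.53e-20), Aars, alanyl-tRNA synthetase (0.62, adjusted p = 8.78e-17), and Gpt2, a mitochondrial alanine aminotransferase (0.94, adjusted p = 3.55e-15). The lower ones were Nupr1, Ddit4 and Stc2, with log2 changes of -0.85, -0.23 and -0.43.

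The chaperones and folding enzymes outside the 33 leaned the other way, with 5 of 30 higher (16.7%), 14 lower (46.7%) and a median of -0.129. Those with the smallest p-values were Creld1, a relative of Creld2, Ero1l, the oxidase that recharges disulphide isomerases, and Txndc5, a disulphide isomerase, with log2 changes of -5.21, -1.02 and -0.62. Creld1 had 0.448 to 1.32 CPM in C2C12-FLNotch1 wells, against 35.3 to 43.5 CPM in C2C12-control wells. Of 31 genes of translocation and glycosylation, 15 were higher (48.4%) and 6 lower (19.4%), among them Srprb, a subunit of the signal recognition particle receptor, at 0.82, Ssr2, of the translocon, at 0.39 and Gfpt1, of hexosamine synthesis, at -0.49. Of 23 other ERAD genes, 3 were higher (13%) and 9 lower (39.1%), among them Vcp, the extracting ATPase, at 0.32, Edem3 at -0.57 and Rnf5 at -0.56.

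Of 19 other sensors and regulators, 6 were higher (31.6%) and 7 lower (36.8%), near the shares over all genes. Eif2ak2, the kinase PKR, which acts on the same translation factor as PERK, had a log2 change of -1.43. The transcription factors Creb3l1 and Atf5 had log2 changes of 0.67 and 0.71. Among 11 heat shock genes, which answer to misfolded protein outside the ER, 3 were higher and 3 lower, 27.3% each and near the shares over all genes. Their median was 0.014. The list, cytosolic by its label, also holds the mitochondrial Hspd1 and Hspe1, and Hspd1 was among those higher. Hspb1 had a log2 change of -1.26, Hspa1b of -0.94 and Hsph1 of 0.39. Hspa1b and Hspa1a are near-identical copies, so that their reads could be split between them.

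**Figure D3:**
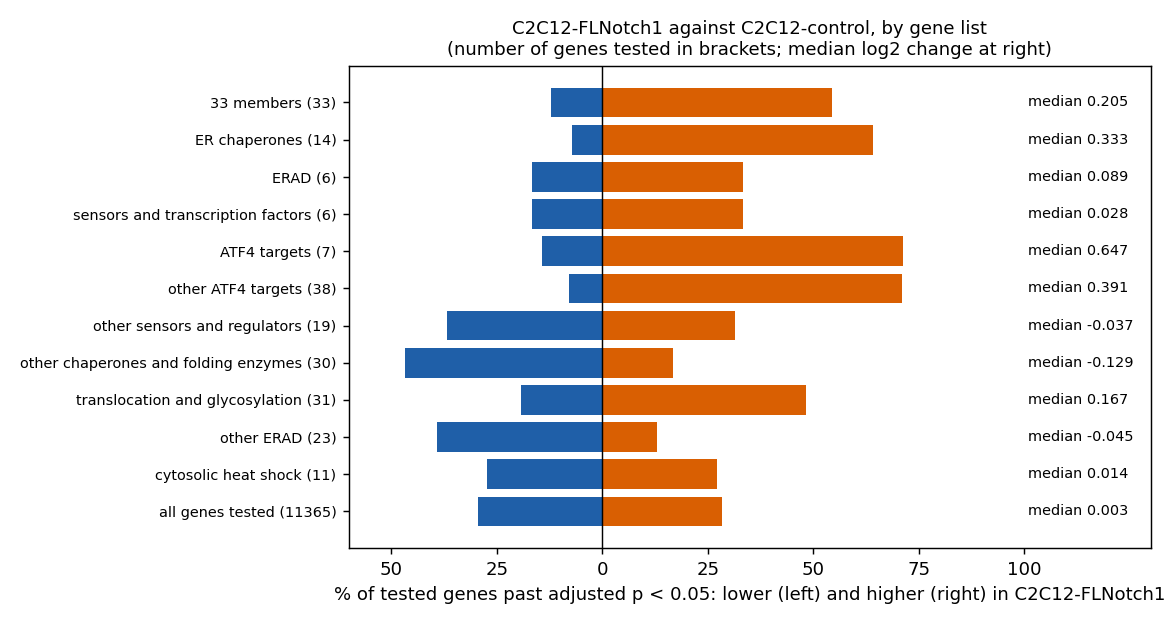
Share of the tested genes of each list that were higher (orange, right) or lower (blue, left) in C2C12-FLNotch1 than in C2C12-control at an adjusted p under 0.05, with the median log2 change at the right. The ATF4 targets among the 33 genes and the other ATF4 targets have median changes of 0.647 and 0.391, while all genes tested have 0.003.

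The study set the Jag1 lines against HEK-control to ask what a Jag1-bearing neighbour does to the myoblasts. These comparisons share the HEK-control wells and have 2 wells per HEK line, pooled over both C2C12 lines. Next to HEK-Jag1WT, 3 of the 33 genes were called, all higher than next to HEK-control: Xbp1, Edem1 and Pdia6. That is 9.09% of the 33, against 4.46% of all genes tested. The changes of the 33 genes ran from -0.20 to 0.32 on the log2 scale, with a median of 0.02. At an unadjusted p under 0.05 there were 4, the other being Trib3 at 0.32 (adjusted p = 0.259). Over all 11365 genes tested, 1543 had an unadjusted p under 0.05.

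The 3 called genes moved little. Xbp1 had 69.8 RPKM next to HEK-Jag1WT and 59.8 RPKM next to HEK-control in C2C12-FLNotch1, and 72.7 against 60.8 RPKM in C2C12-control (log2 change 0.26, SE 0.0759, adjusted p = 0.027). Edem1 had 22.5 RPKM next to HEK-Jag1WT and 17.9 RPKM next to HEK-control in C2C12-FLNotch1, and 26.4 against 23.9 RPKM in C2C12-control (log2 change 0.26, SE 0.0793, adjusted p = 0.0438). Pdia6 had 343 RPKM next to HEK-Jag1WT and 294.7 RPKM next to HEK-control in C2C12-FLNotch1, and 279 against 259.8 RPKM in C2C12-control (log2 change 0.20, SE 0.0576, adjusted p = 0.0311). Each was higher with HEK-Jag1WT in both C2C12 lines, but 6 of 11 alternatives ended each call, and over the alternatives the adjusted p reached 0.902 for Xbp1, 1 for Edem1 and 0.634 for Pdia6. With library size only, DESeq2 or limma, 0 of the 33 genes were called. Leaving out the HEK-Jag1WT well of either C2C12 line also gave 0, and leaving out a HEK-control well gave 1 for that of C2C12-FLNotch1 and 2 for that of C2C12-control.

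Next to HEK-Jag1Ndr, 0 of the 33 genes were called against HEK-control by edgeR, where 0.528% of all genes were. At an unadjusted p under 0.05 there were 3, namely Atf4 at 0.15, Sesn2 at -0.24 and Ppp1r15a at 0.20. Over all 11365 genes tested, 843 were under it. DESeq2 called 0 of the 33. The log2 changes ran from -0.29 in Dnajb9 to 0.20 in Ppp1r15a. Next to HEK-Jag1Ndr against HEK-Jag1WT, 0 of the 33 were called by edgeR, where 2.03% of all genes were. There were 3 at an unadjusted p under 0.05, namely Edem1 at -0.27, Pdia6 at -0.15 and Ern1 at 0.32. In this comparison 1090 of all 11365 genes tested were under it, and DESeq2 called 0 of the 33. Edem1 came closest, with an adjusted p of 0.0526.

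Of the 141 other pathway genes, 5 were called next to HEK-Jag1WT against HEK-control, or 3.55%, against 4.46% of all genes tested. Ddit4, a stress-inducible inhibitor of mTORC1, had a log2 change of 0.85 (adjusted p = 4.51e-15), the transcription factor Creb3l1 of 0.40 and Spcs3, of the signal peptidase, of 0.28. Wfs1, an ER membrane protein, had a log2 change of -0.40 and the cystine transporter Slc7a11 of -0.42. Next to HEK-Jag1Ndr, 0 of the 141 were called by edgeR, with 9 at an unadjusted p under 0.05. Over all 11365 genes tested, 843 were under it. Between HEK-Jag1Ndr and HEK-Jag1WT, 3 were called, or 2.13%, against 2.03% of all genes tested, namely Ddit4 at -0.62, Creb3l1 at -0.26 and the amino acid transporter Slc7a1 at 0.31.

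Within 1 C2C12 line, each response is a ratio of 2 wells, and a difference between the lines cannot be tested. Intervals here are exact conditional 95% intervals that cover counting error only. In C2C12-FLNotch1, 9 of the 33 genes had an interval above 0 and 0 below for HEK-Jag1Ndr over HEK-control, with a median log2 ratio of 0.069. Of all 8124 genes with enough reads, 707 had an interval above 0 and 556 below in this comparison, or 15.5% off 0. Intervals narrow as reads increase, so these counts depend on the read depth of the genes. In C2C12-control the same comparison gave 3 above and 3 below, with a median of -0.059, and 11% of all genes had an interval off 0. Hspa5 had a log2 ratio of 0.19 (interval 0.117 to 0.257) in C2C12-FLNotch1 and of 0.02 (interval -0.067 to 0.101) in C2C12-control. Dnajc3 had 0.23 (interval 0.1 to 0.361) in C2C12-FLNotch1 and 0.02 (interval -0.123 to 0.162) in C2C12-control. For HEK-Jag1WT over HEK-control, 6 of 33 genes had an interval above 0 and 0 below in C2C12-FLNotch1, and 4 above and 3 below of 30 with enough reads in C2C12-control. Over all genes with enough reads, 17.9% in C2C12-FLNotch1 and 16.3% in C2C12-control had an interval off 0 in that comparison. HEK-Jag1Ndr over HEK-Jag1WT gave 7 above and 3 below of 32 genes in C2C12-FLNotch1, where 13.2% of all genes were off 0. In C2C12-control it gave 1 above and 4 below of 33, where 13.8% were.

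**Figure D4:**
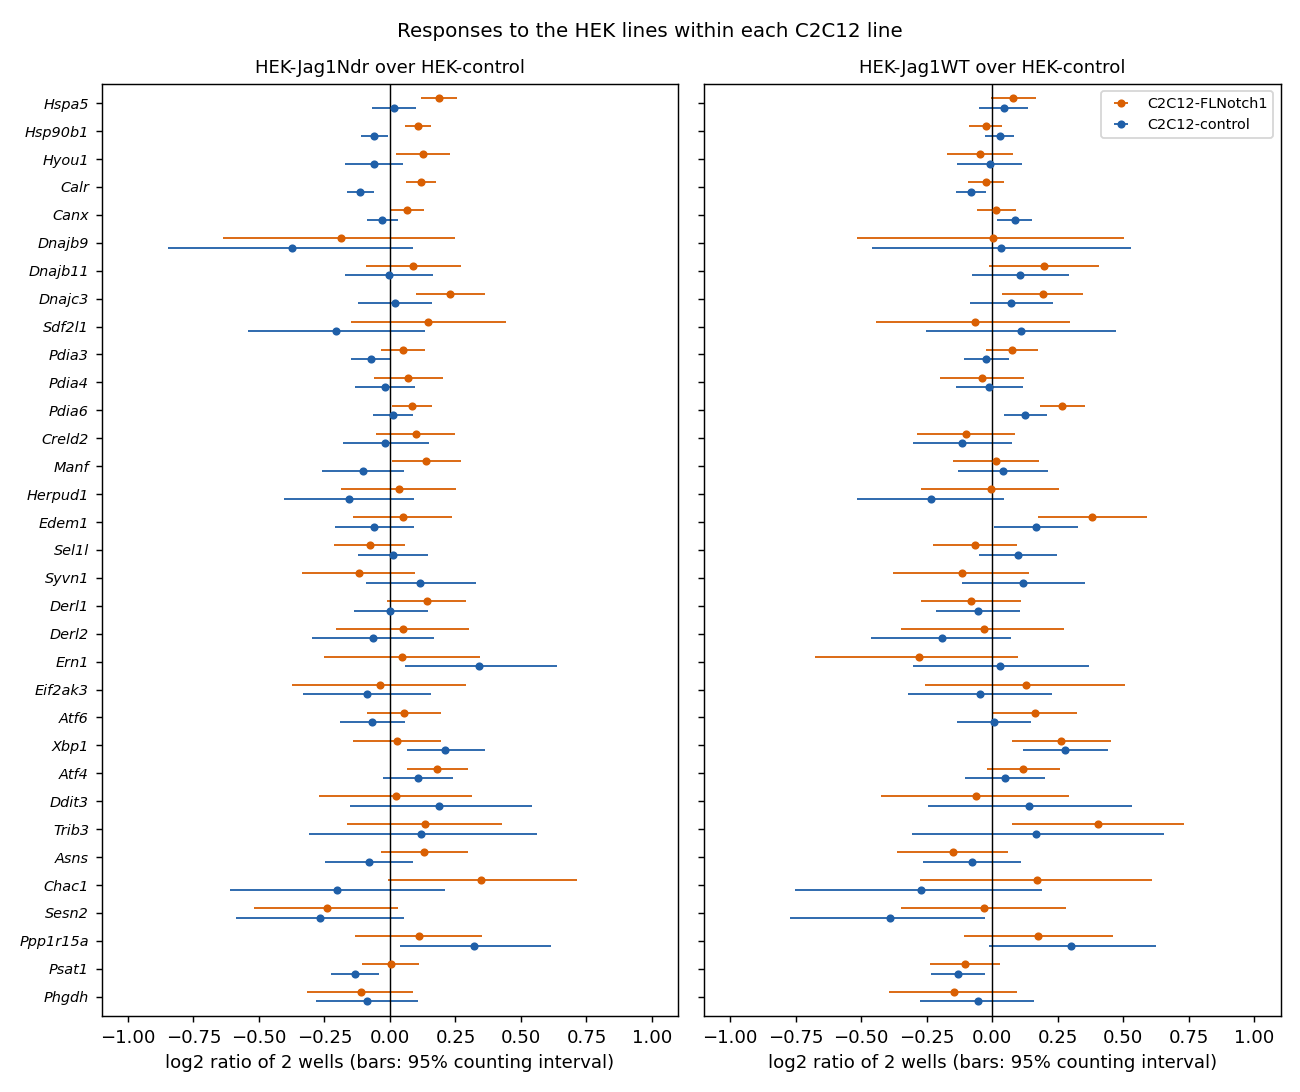
Log2 ratio of 2 wells for each of the 33 genes, HEK-Jag1Ndr over HEK-control on the left and HEK-Jag1WT over HEK-control on the right, in C2C12-FLNotch1 (orange) and C2C12-control (blue); bars are 95% intervals of counting error. The ratios lie between -0.39 and 0.40, and the orange points for Hspa5 and Dnajc3 on the left lie at 0.19 and 0.23.

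The human genes of the same names were read from the partner cells of the same wells, as levels with no test. The 33 human genes varied more between the HEK lines than the mouse genes did between the same wells. The highest mean over the lowest mean of the 3 HEK lines passed 1.5 for 12 human genes, with a median ratio of 1.43. It did so for 0 mouse genes, with a median ratio of 1.09. The human ratios compare 3 cell lines, while the mouse ratios compare the same myoblast lines beside different partners. The same counts were not taken over all genes of either species, so whether 12 is unusual cannot be said. CHAC1 averaged 2.66 RPKM in HEK-Jag1Ndr, 1.40 RPKM in HEK-Jag1WT and 8.63 RPKM in HEK-control. Its HEK-Jag1WT level rests on 10 reads beside C2C12-FLNotch1 and 12 beside C2C12-control. Mouse Chac1 averaged 15.9, 14.3 and 14.8 RPKM in the myoblasts beside those HEK lines. TRIB3 averaged 38.4 RPKM in HEK-Jag1Ndr, 26.9 RPKM in HEK-Jag1WT and 92.4 RPKM in HEK-control, while mouse Trib3 averaged 15.3, 17.7 and 14.3 RPKM. SESN2 averaged 14.0 RPKM in HEK-Jag1Ndr, 11.5 RPKM in HEK-Jag1WT and 32.9 RPKM in HEK-control, while mouse Sesn2 averaged 13.9, 14.7 and 16.9 RPKM. These 3 ATF4 targets were thus lower in both Jag1 lines than in HEK-control on the human side, but not every ATF4 target was. Mouse Trib3 and Chac1 did not follow that order, while mouse Sesn2 was also highest next to HEK-control, with a highest-to-lowest ratio of 1.22 against 2.87 for SESN2.

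The human side was not uniform. ASNS averaged 259 RPKM in HEK-Jag1Ndr, 316 RPKM in HEK-Jag1WT and 230 RPKM in HEK-control. In that order PSAT1 averaged 108, 102 and 137 RPKM, PHGDH 159, 156 and 163 RPKM, and ATF4 itself 345, 496 and 339 RPKM. PPP1R15A averaged 85.9 RPKM in HEK-Jag1Ndr, 149 RPKM in HEK-Jag1WT and 70.35 RPKM in HEK-control, and mouse Ppp1r15a 26.7, 27.0 and 23.8 RPKM. XBP1 averaged 111 RPKM in HEK-Jag1Ndr, 149 RPKM in HEK-Jag1WT and 94.3 RPKM in HEK-control, and mouse Xbp1 64.55, 71.2 and 60.3 RPKM, so that this called gene was highest next to HEK-Jag1WT in both species. EDEM1 averaged 14.7 RPKM and PDIA6 174.9 RPKM in HEK-Jag1WT, against 19.3 and 255 RPKM in HEK-control, the opposite order to mouse Edem1 and Pdia6. Mouse reads were rare for the HEK markers with the most human reads. Epcam had 0 mouse reads beside 12151 human reads, and Dsp had 5 beside 13513. Lin28b had 11 beside 6273, and Zic2 had 14 beside 1791. Jag1 had far more mouse reads in the wells of the Jag1 lines, as given above. These genes do not show how often mouse reads were counted as human.

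**Figure D5:**
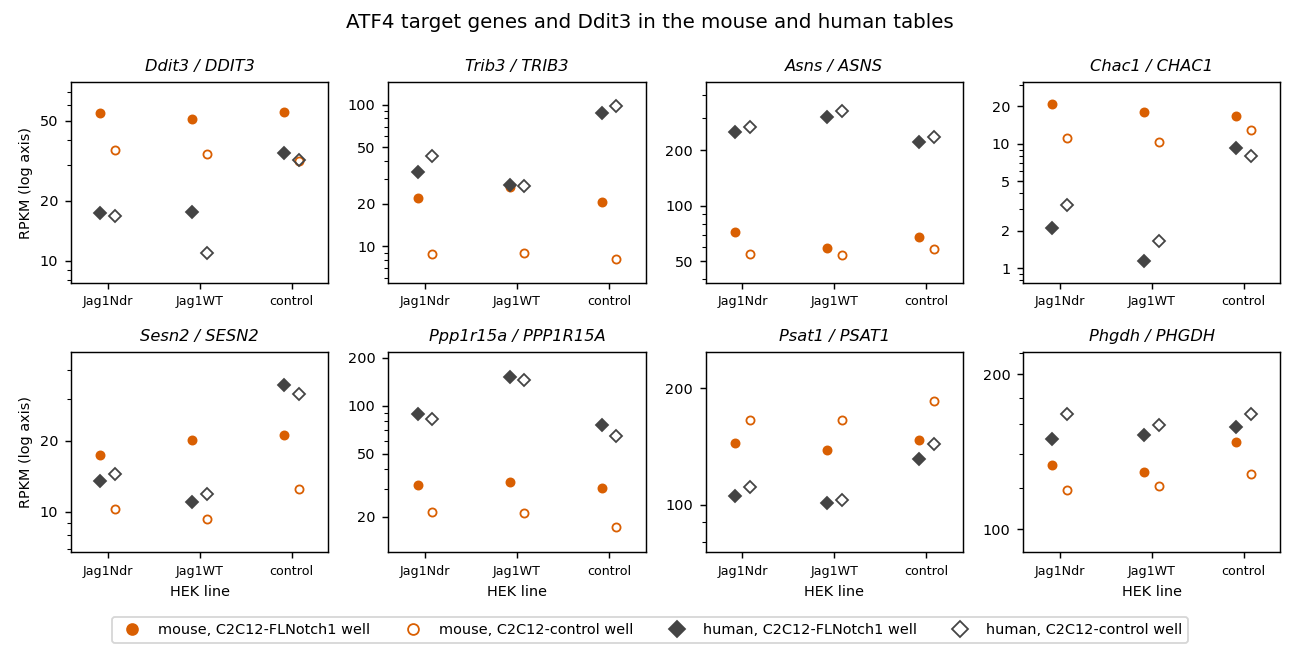
RPKM (log axis) of Ddit3 and the 7 ATF4 targets in the mouse table (orange circles) and of the human genes of the same names (grey diamonds), by HEK line, with filled markers for C2C12-FLNotch1 wells and open markers for C2C12-control wells. Human TRIB3, CHAC1, SESN2 and DDIT3 are highest with HEK-control, while the filled mouse circles lie above the open ones for every gene but Psat1.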

How the data were processed

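PolyA RNA of 6 co-culture wells was sequenced after an unstranded TruSeq preparation, per the labels. The submitters' processing notes name STAR, mm9 and hg19. In the sources used here, STAR's version, the counting tool and the species split are not given. The authors deposited whole-number read counts per gene and well, per the file headers, and RPKM values, per the file headers. In the deposited RPKM, Syvn1 and Psat1 of the 33 mouse genes, and SEL1L, DDIT3 and CHAC1 of the human genes, had an RPKM per read of the library that differed by over 5% between wells, by up to 15.6%; all tests but limma rest on the counts. Of 23905 mouse entries, 472 exact repeats were dropped.

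Counts were tested with edgeR 4.0.16 in R 4.3.3 (TMM, filterByExpr, robust quasi-likelihood, C2C12 line plus HEK line, 2 residual degrees of freedom) at a Benjamini-Hochberg adjusted p under 0.05. SE is the log2 change over the square root of F. The common biological coefficient of variation was 3.89%. Ratios of single wells used a prior count of 2 and a minimum of 100 reads in 1 of the wells, with exact conditional 95% intervals for counting error. Alternatives were RLE factors, library size only, DESeq2 1.42.0, no filter on low counts, limma 3.58.1 on log2(RPKM + 1), no HEK term, a prior count of 0.5 and each well left out. With 3 wells against 3, an exact two-sided permutation test cannot go below 0.1, so none was used. The edgeR line test was also run on simulated counts. These had few changed genes and no HEK effect, unlike the data, so no result above rests on that run.

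The 33 genes, the lists and the tests were chosen with earlier results of these data known. Values of all wells are given for the 12 genes with the largest line differences among those that passed, for the genes that passed a HEK comparison, and for the sensors and transcription factors. Of other lists, up to 3 genes that passed, with the smallest p, were named; the lower ATF4 targets, the genes called in HEK comparisons, the single C2C12 markers and all genes of the human table were named after their values were seen.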

Additional observations from a re-analysis of the deposited data

Results flagged for a closer look

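Hsp90b1 and Calr, both abundant ER chaperones, had responses of opposite sign in the C2C12 lines, with counting intervals off 0 in each. Next to HEK-Jag1Ndr over HEK-control, Hsp90b1 had a log2 ratio of 0.107 in C2C12-FLNotch1 and -0.059 in C2C12-control. Calr had 0.118 in C2C12-FLNotch1 and -0.113 in C2C12-control in the same comparison. For HEK-Jag1Ndr over HEK-Jag1WT, Hsp90b1 had 0.132 in C2C12-FLNotch1 and -0.087 in C2C12-control. Each ratio comes from 2 wells, the difference between the lines was not tested, and the intervals cover counting error only.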

How the results depend on the processing

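The line comparison kept its counts within 1.5 times under all 12 alternatives, with 15 to 19 genes higher and 3 to 5 lower. Of the 33 genes, 15 were higher and 3 lower with DESeq2, and 19 and 4 with limma. No log2 change of a called gene changed sign. Phgdh passed with limma (adjusted p = 0.0285), and Xbp1 once the HEK-control well of C2C12-control was left out (log2 change -0.16, adjusted p = 0.0493). The HEK-Jag1WT count of 3 fell to 0 with library size only, with DESeq2 and with limma, and ran from 0 to 3 over the left-out wells. The HEK-Jag1Ndr against HEK-Jag1WT count of 0 ran from 0 to 1 over the left-out wells. The causes were not tested.

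Over all genes, the line comparison called 6569 genes with edgeR and 3585 with DESeq2. HEK-Jag1WT called 507 with edgeR, 151 with DESeq2, 149 with limma, and 303 and 320 without the C2C12-FLNotch1 or the C2C12-control well of that partner. The share of its calls that were higher was 60.6%, against 47.1% with library size only and 76.2% with DESeq2. HEK-Jag1Ndr called 60 with edgeR, 6 with DESeq2, 1 with limma, 91 with no filter on low counts and 40 to 84 over the left-out wells. HEK-Jag1Ndr against HEK-Jag1WT called 231 with edgeR, 41 with DESeq2, 5 with limma and 138 to 313 over the left-out wells. The labels give no replicate numbers, and the term for the HEK partner pairs the wells of the C2C12 lines. Without that term, 18 of the 33 genes were higher and 4 lower, as with it. With 1 well per combination, 2 residual degrees of freedom limit what the HEK comparisons can show.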
